A study of Mus musculus with 12 samples.

Results

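Mouse epiblast stem cells (EpiSCs, 129 background) given XAV939 alone were compared with untreated EpiSCs, on 6 of the 12 arrays of the series. The 3 arrays titled for XAV939 and the 3 titled as not treated were taken from the sample labels, and a difference is always XAV939 minus untreated on the log2 scale. All cells were starved of serum for 12 h before treatment, the untreated ones included, and XAV939 was given at 2 µM. The sample labels give 2 h of XAV939 and the design text gives 4 h, so the time is not settled. The other 6 arrays, used here only as a second comparison, held 3 of CHIR99021 alone (3 µM for 2 h) and 3 of CHIR99021 together with XAV939. No vehicle is named for the untreated cells. A description field names them embryonic stem cells instead. The labels do not say whether replicate arrays stand for separate cultures; the p-values therefore cover the spread among these arrays only, and that spread may be technical.

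XAV939 inhibits the tankyrases, enzymes that attach poly(ADP-ribose) to Axin and so mark it for ubiquitination by RNF146 and for destruction. Axin is the scaffold on which APC, casein kinase 1 and GSK3 phosphorylate beta-catenin, and a stabilised Axin lowers the pool of beta-catenin that enters the nucleus to act with TCF/LEF factors. EpiSCs resemble the epiblast after implantation, are maintained by activin or Nodal and FGF, and can express genes of the primitive streak, where Wnt and Nodal signals meet. The question for this comparison was what tankyrase inhibition does to expression when no Wnt agonist has been added.

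Expression was measured for 19938 genes, each represented by its brightest probe with 1 gene symbol. As a rough background level, 4.94 was taken, the 95th percentile of mean levels among 1194 receptor genes of the olfactory and vomeronasal families, and 11594 genes (58.2%) had a mean above it. Correlations between arrays ranged from 0.990 to 0.995. The spread of all probe values was 2.16 ± 0.02 (SD over arrays, n = 3) in untreated and 2.17 ± 0.03 (n = 3) in XAV939 arrays, and was lowest on untreated replicate 3 and XAV939 replicate 2 (both 2.14). The pluripotency factor Pou5f1 measured 11.43, 11.49 and 11.46 in untreated cells and 11.46, 11.59 and 11.42 with XAV939, and the primed epiblast gene Fgf5 measured 8.23 to 8.26 and 8.18 to 8.24. All 13 measured core pluripotency genes and all 15 primed epiblast genes had a mean above background, as had 9 of the 16 naive pluripotency genes. The primed genes go with the label EpiSC. Since 58.2% of all genes pass this cutoff, it does not by itself set the cells apart from embryonic stem cells.

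No gene passed the test between XAV939 and untreated cells (limma, Benjamini-Hochberg adjusted p under 0.05 over all 19938 genes, 0% called), and the smallest adjusted p was 0.155. An unadjusted p under 0.05 was reached by 2241 genes (11.2%), of which 1184 were higher with XAV939 (5.94%) and 1057 lower (5.3%). Among genes above background the same threshold took 1031 genes higher (8.89%) and 383 lower (3.3%). The differences were small: only 24 genes (0.12%) had a difference of 0.5 or more, 8 higher (0.0401%) and 16 lower (0.0802%). Groups did not overlap, meaning that all 3 XAV939 arrays lay on 1 side of all 3 untreated arrays, in 1891 genes higher (9.48%) and 1628 genes lower (8.17%) with XAV939. The median 95% interval of a difference extended 0.19 to each side. In simulated data with independent noise and 200 changed genes, the test recovered 78% of those changed by 0.5 and 4% of those changed by 0.25. More of the 200 were changed by 1 in size than by either smaller amount, which eases the adjusted threshold. The 78% is therefore not the recovery to be expected here, where only 24 genes differed by 0.5 or more. By the 4% recovered, a difference of about 0.25 in a single gene was not detectable with 3 arrays per group. When arrays were weighted by their quality, 8 genes passed (Dll1, Nid1, Zhx2 and Mpv17l higher; Fst, Gm5779, Nlrc4 and Trim54 lower), each at an adjusted p of 0.0454, and the adjusted p of these genes reached up to 0.59 over the other settings.

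The 24 genes described first were the 12 higher and the 12 lower genes with the smallest p among genes above background, so their separation is a description and not a test. The higher genes differed by 0.33 to 0.58 and the lower genes by 0.37 to 0.69 in size, at adjusted p of 0.155 to 0.221. They included Dll1, a ligand of Notch receptors, the stress genes Atf3, Ddit4 and Ppp1r15a, and the cell adhesion gene Cdh3 among those higher. Among those lower were Nodal, the extracellular activin antagonist Fst, and the microRNA genes Mir367, Mir302d and Mir139.

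**Figure D1:**
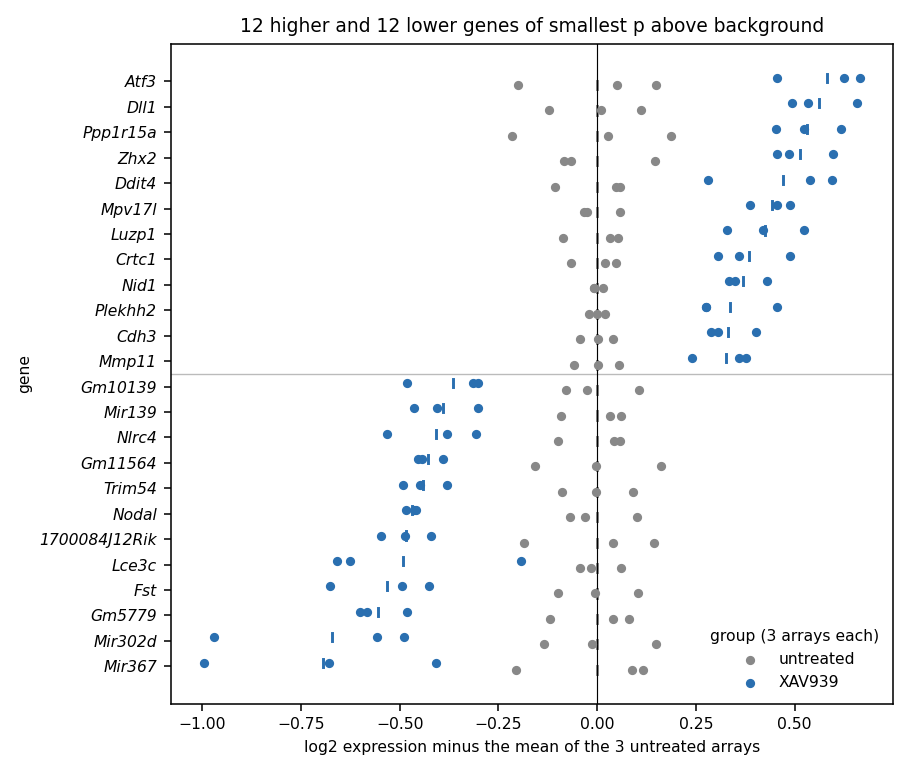
Each row is a gene, each point an array, and the x axis is log2 expression minus the mean of the 3 untreated arrays; bars are group means. The 3 XAV939 arrays (blue) lie apart from the 3 untreated arrays (grey) in all 24 genes, which were chosen by their p in this comparison, with differences from -0.69 for Mir367 to 0.58 for Atf3.

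The target enzymes and the beta-catenin destruction complex came first. Tnks, which encodes tankyrase 1, measured 9.34, 9.34 and 9.35 in untreated cells and 9.49, 9.68 and 9.55 with XAV939. All 3 treated arrays were above all 3 untreated ones, by 0.23 ± 0.07 (SE), at an adjusted p of 0.286. Its paralog Tnks2 differed by 0.02, with a 95% interval of -0.14 to 0.18. The scaffolds Axin1 (0.10) and Apc (0.03), the kinases Gsk3a (-0.06), Gsk3b (0.07) and Csnk1a1 (-0.08), beta-catenin itself (Ctnnb1, 0.08) and the ubiquitin ligase Rnf146 (0.08) had 95% intervals that included 0. This and the later lists were chosen with earlier results of these data known, so their counts are descriptions and not tests. In this list of 22 measured genes, no gene was called, 2 were higher (Tnks and Dvl3) and 3 lower (Amer1, Frat1 and Axin2) at an unadjusted p under 0.05. Of all genes 5.94% were higher and 5.3% lower at that threshold, and of genes above background 8.89% and 3.3%. These shares stand beside the counts of every list below. Without XAV939 replicate 2 the counts were 1 higher and 0 lower, and without untreated replicate 2 they were 1 and 1. The median difference was 0.03, beside 0.02 for genes of like brightness. For this second value, each list member was given the median difference of all genes in its decile of mean expression. The median of these over the list members was then taken, here and for every later list. Amer1, a membrane anchor for APC and Axin, differed by -0.26, and Frat1, which binds GSK3 and keeps it from Axin, by -0.21. XAV939 acts on the enzyme and on protein stability, which these RNA measurements do not cover.

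The other substrates and partners of tankyrase were described by 13 measured genes, with a median difference of 0.10 beside 0.05 for genes of like brightness. Mdc1, a mediator of the DNA damage checkpoint, was at 8.85, 8.92 and 8.90 without and 9.12, 9.13 and 9.02 with XAV939. Amotl1, an angiomotin family member, was at 6.47, 6.47 and 6.37 without and 6.60, 6.66 and 6.61 with it. These were the only 2 list members at an unadjusted p under 0.05, both higher, and their adjusted p were 0.333 and 0.406. The count of higher genes was 1 without untreated replicate 3, XAV939 replicate 2 or XAV939 replicate 3, and after cyclic loess normalization it was 0, with a median of 0.04.

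Axin2 is the most widely used readout of Wnt/beta-catenin signalling, because its transcription is driven by TCF/LEF sites. It measured 5.77, 6.04 and 6.03 in untreated cells and 5.94, 5.55 and 5.68 with XAV939. The groups overlapped, since XAV939 replicate 1 was above untreated replicate 1. The difference was -0.22 ± 0.10 (SE), a level 1.17-fold lower, with a 95% interval of -0.43 to -0.01 and an adjusted p of 0.418. Without XAV939 replicate 1 it was -0.33, without XAV939 replicate 2 it was -0.14, and without the latter and untreated replicate 3 together it was -0.10. Sp5, another direct target and a transcription factor, was close to background with 4.40, 4.19 and 4.41 against 4.08, 4.33 and 4.15. Dkk1, a secreted antagonist of the Wnt co-receptors and likewise not above background, was lower on every XAV939 array, at 4.60, 4.52 and 4.44 against 4.68, 4.67 and 4.69.

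Across 24 measured Wnt targets the differences were divided evenly, with 12 above 0 and 12 below, and the median was -0.0015 beside 0.01 for genes of like brightness. Lef1 (0.06), Lgr5 (0.01), Nkd1 (-0.07) and Rnf43 (-0.01) had differences within the spread of their arrays. Znrf3, a ligase that removes Wnt receptors, was at 0.15 and Notum, a secreted enzyme that inactivates Wnt ligands, at -0.20. Jun, which also belongs to the immediate early genes, had the largest difference of the list at 0.33. At an unadjusted p under 0.05 there were 1 higher gene (Jun) and 2 lower genes (Axin2 and Notum), with no lower gene left at it without untreated replicate 2 or 3. Tbxt and Tcf7 were not analysed here.

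Genes for the Wnt ligands, their receptors and their processing numbered 43, with a median of -0.06 beside -0.04 for genes of like brightness, 1 higher and 4 lower at an unadjusted p under 0.05, and 0 and 2 without untreated replicate 3. The lower ones named by p were Wnt5b (-0.21), the receptor Fzd10 (-0.19) and the Wnt amplifier Rspo3 (-0.18). Rspo3 measured 5.13, 5.15 and 5.18 without and 4.91, 4.98 and 5.03 with XAV939, so the groups did not overlap. Porcn, the enzyme that attaches the lipid to Wnt ligands, was higher by 0.18. In the list of 15 TCF/LEF factors and Groucho co-repressors, Tle3 (0.17) and Tle6 (0.23) were the higher genes at that threshold and none was lower; without XAV939 replicate 1 neither reached it. Tcf7l1, the main TCF of pluripotent cells, differed by 0.09 with an interval of -0.05 to 0.23.

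Primitive streak and mesendoderm genes were mostly below 0: 21 of 25 measured members had a negative difference, where 50.2% of all genes were above 0. The BMP target list leaned the same way (14 of 16 below 0), as did cholesterol synthesis (13 of 16). The median of the streak genes was -0.12, beside -0.04 for genes of like brightness, and it lay between -0.16 and -0.08 over all settings. No member was called, and 3 were lower and 0 higher at an unadjusted p under 0.05 (Tbx6, Fgf17 and Fgf8). Of all genes 5.3% were lower and 5.94% higher at that threshold. The count of lower genes was 0 without untreated replicate 2, 1 without XAV939 replicate 1, 6 without untreated replicate 3 and 8 with array weights. Only 11 of the 25 were above background. Eomes, a T-box factor of mesendoderm, was among those and measured 7.12, 7.17 and 7.06 in untreated cells against 6.96, 6.90 and 6.93 with XAV939. The groups did not overlap, and the difference was -0.18 ± 0.09 (SE) at an adjusted p of 0.444. Wnt8a, a ligand made in the streak, was at 7.95, 7.95 and 7.80 against 7.77, 7.67 and 7.80, a difference of -0.16. Mixl1 (-0.07), Gsc (-0.15) and Wnt3 (-0.12) were near background and had intervals that included 0. In bulk RNA, fewer cells that express a gene and less RNA per cell cannot be told apart.

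Nodal was the streak and epiblast ligand with the clearest separation. It measured 6.92, 6.79 and 6.75 in untreated cells and 6.36, 6.35 and 6.33 with XAV939. The lowest untreated array was above the highest treated one by more than the range of either group, and the mean was 6.82 ± 0.09 against 6.35 ± 0.01 (SD, n = 3 each). The difference was -0.47 ± 0.09 (SE), or 1.39-fold lower, with a 95% interval of -0.66 to -0.28 and an adjusted p of 0.155. Leaving out single arrays or rescaling gave differences between -0.54 and -0.42, and adjusted p between 0.0755 and 0.574. Fst encodes follistatin, which binds and blocks activin. It measured 7.88, 8.08 and 7.97 without and 7.55, 7.49 and 7.30 with XAV939, a difference of -0.53 ± 0.10 (SE) at an adjusted p of 0.155.

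The rest of the Nodal and activin pathway did not follow these 2 genes as a group. Among 23 measured members the median was -0.01 beside 0.05 for genes of like brightness, with 4 lower and 0 higher at an unadjusted p under 0.05. Besides Nodal and Fst, the lower ones were the co-receptor Cfc1 (-0.24) and the activin subunit Inhbb (-0.24), neither above background. The feedback inhibitors Lefty1 (-0.17) and Lefty2 (-0.06) were not above background either, while the co-receptor Tdgf1 (-0.01), the effectors Smad3 (-0.01) and Foxh1 (0.00), and the target Smad7 (-0.07) differed little.

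**Figure D2:**
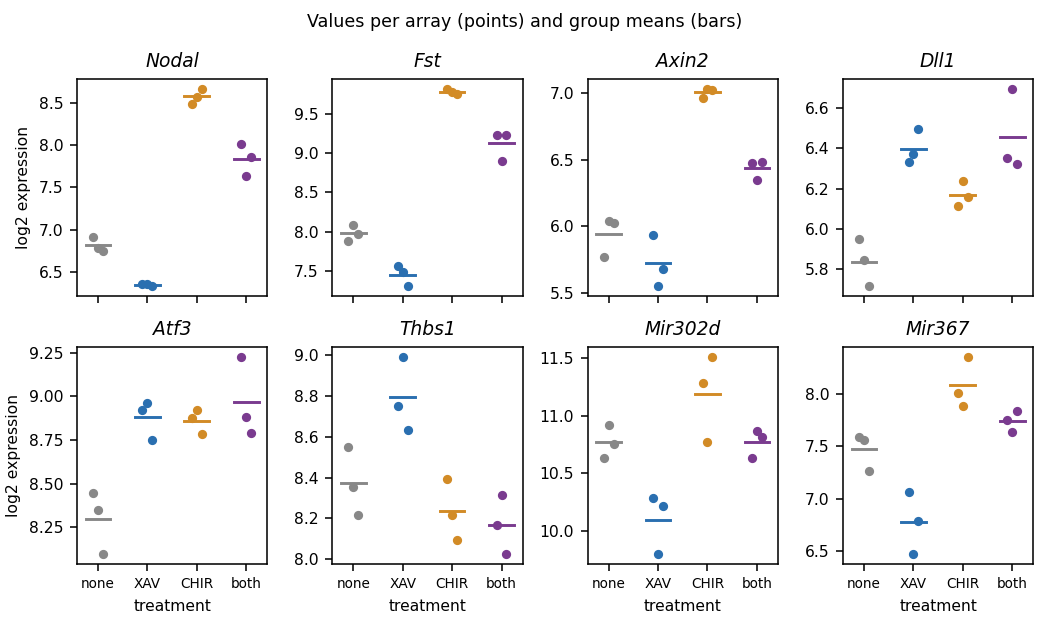
Log2 expression of 8 genes on all 12 arrays, 3 per treatment (none, XAV939, CHIR99021 and both compounds); points are arrays, bars are group means, and each panel has its own y axis that does not start at 0. With XAV939 alone Nodal was at 6.33 to 6.36 against 6.75 to 6.92, and Dll1 at 6.33 to 6.49 against 5.72 to 5.95.

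The microRNA genes of the cluster that holds miR-302 and miR-367 gave the largest differences among the 24 genes. This cluster is a primary transcript of pluripotent cells that is cut into several microRNAs, and its products with the AAGUGC seed are known for promoting the cell cycle and the pluripotent state. In GRCm38.p6 its 5 hairpins lie within 580 bases on the plus strand of chromosome 3, chr3:127545228-127545807, in the order Mir302b, Mir302c, Mir302a, Mir302d and Mir367, inside the span of the protein-coding gene Larp7 and of the long noncoding RNA Gm51018. The mature sequences that RefSeq gives are printed to show which products share a seed, with the seed (bases 2 to 8) in capitals.
mmu-miR-302b-3p: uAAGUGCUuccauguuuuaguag
mmu-miR-302d-3p: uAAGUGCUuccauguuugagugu
mmu-miR-302c-3p: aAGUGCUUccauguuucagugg
mmu-miR-302a-5p: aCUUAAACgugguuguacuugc
mmu-miR-367-3p: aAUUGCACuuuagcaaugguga
The miR-302b and miR-302d products share the seed AAGUGCU, that of miR-302c is AGUGCUU, and that of miR-367 is AUUGCAC. The array probes report RNA from these loci and were labelled from total RNA, so precursor and mature forms cannot be told apart.

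All 5 members were lower on every XAV939 array than on any untreated one. Mir367 measured 7.59, 7.56 and 7.26 without and 7.06, 6.47 and 6.79 with XAV939, a difference of -0.69 ± 0.14 (SE), or 1.62-fold lower, at an adjusted p of 0.199. Mir302d measured 10.64, 10.92 and 10.76 without and 10.28, 9.80 and 10.21 with it (-0.67, adjusted p = 0.221). The other members, chosen after their values were seen because they share the cluster, differed by -0.64 (Mir302a), -0.58 (Mir302b) and -0.58 (Mir302c). XAV939 replicate 2 was the lowest array for each of the 5, and without it the differences were -0.44 to -0.54. The 5 are not independent, since they correlated at 0.926 to 0.992 over the 12 arrays and come from the same stretch of RNA. Larp7, the gene around them, differed by 0.13 in the other direction (adjusted p = 0.611).

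Other microRNA genes were more often lower than higher. Of all 291 microRNA genes outside the cluster, 31 were lower and 6 higher at an unadjusted p under 0.05, where 5.3% and 5.94% of all genes were. Of the 97 above background, 16 were lower and 2 higher, where 3.3% of all genes above background were lower and 8.89% higher. Mir139 was one of them, at 7.24, 7.21 and 7.08 without and 6.77, 6.71 and 6.87 with XAV939. Among 49 small nucleolar RNA genes above background, 4 were lower and 1 higher. The most negative differences of all genes on the deposited values were those of 2 such RNAs, Snora44 (-1.05) and Snord73b (-1.02), but their groups overlapped and single arrays moved them: Snora44 was at -0.60 without XAV939 replicate 1 and at -1.74 without XAV939 replicate 2, and Snord73b at -0.72 and -1.40. Snora44 ranged from 6.87 to 9.15 on the XAV939 arrays and from 8.30 to 9.28 on the untreated ones. Whether the recovery of short RNAs differed between the groups was not tested.

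Dll1 had the smallest p of the higher genes. Its product sits on one cell and activates Notch receptors on the next, and Dll1 is itself expressed in the streak and presomitic mesoderm. It measured 5.95, 5.85 and 5.72 in untreated cells and 6.33, 6.37 and 6.49 with XAV939, without overlap. The difference was 0.56 ± 0.10 (SE), or 1.48-fold, with a 95% interval of 0.35 to 0.77 and an adjusted p of 0.155. Receptors were also on the higher side: Notch1 was at 6.98, 7.0 and 6.96 without and 7.14, 7.30 and 7.24 with XAV939 (0.25, adjusted p = 0.292), and Notch2 (0.20) and Notch3 (0.23) differed in the same direction. Among targets the picture was split. Hes1, a repressor induced by Notch, was at 6.92, 6.95 and 6.74 against 7.08, 7.04 and 7.32 (0.28), whereas Nrarp, a feedback inhibitor also induced by Notch, was at 5.80, 5.82 and 5.88 against 5.59, 5.34 and 5.62 (-0.32). Hes5, a further target, differed by -0.14.

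Over the 25 measured Notch pathway genes, 20 of them above background, 6 were higher and 1 lower at an unadjusted p under 0.05, and none was called. At that threshold were 5.94% and 5.3% of all genes, and 8.89% and 3.3% of genes above background. The median of the Notch list, 0.06, stood beside 0.03 for genes of like brightness. The count of higher genes was 2 without untreated replicate 3 and 3 without XAV939 replicate 3, and it was 3 after quantile or cyclic loess normalization. Jag1 (-0.03), Dll3 (0.04), Dll4 (0.08) and Rbpj (-0.12), the DNA-binding partner of cleaved Notch, differed little.

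Genes induced by ATF4, the transcription factor of the amino acid and unfolded protein stress response, were the list most often higher. Because the list was chosen with earlier results of these data known, its counts are a description and not a test. Of 24 measured members, all above background, 10 were higher and 0 lower at an unadjusted p under 0.05, where 8.89% and 3.3% of all genes above background were. Their median was 0.16 beside 0.05 for genes of like brightness, and 0.11 after quantile or cyclic loess normalization. The count was 5 without XAV939 replicate 2 and 3 without that array and untreated replicate 3 together. No member was called. Atf3, a stress-induced transcription factor, measured 8.45, 8.35 and 8.10 without and 8.92, 8.96 and 8.75 with XAV939 (0.58 ± 0.11 SE, adjusted p = 0.155). Ddit4, an inhibitor of mTORC1, measured 9.52, 9.51 and 9.36 without and 10.00, 10.06 and 9.75 with it (0.47). Ppp1r15a, which helps to restart translation by dephosphorylating eIF2alpha, measured 7.45, 7.29 and 7.05 against 7.88, 7.79 and 7.72 (0.53). In all 3 genes the groups did not overlap, and untreated replicate 3 was the lowest array.

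Ddit3, the proapoptotic factor CHOP, differed by 0.51 with a wide untreated range of 8.57 to 9.23, and the pseudokinase Trib3 by 0.36. The stress regulators Sesn2 (0.29), Nupr1 (0.26) and Cebpb (0.24), the growth factor Vegfa (0.26) and the arginine transporter Slc7a1 (0.23) followed. The smaller differences of the list included those of the amino acid enzymes Asns (-0.01), Psat1 (-0.02) and Phgdh (0.06), the folate enzyme Mthfd2 (0.04) and the transporters Slc7a5 (0.06) and Slc7a11 (-0.05). Atf4 itself differed by -0.01. Immediate early genes overlapped with this list in Atf3. Of 25 measured, 21 of them above background, 6 were higher and 0 lower at an unadjusted p under 0.05. At that threshold were 5.94% and 5.3% of all genes, and 8.89% and 3.3% of genes above background. The median of the immediate early list was 0.03, equal at this precision to that for genes of like brightness. Gadd45a was at 7.50, 7.59 and 7.30 against 7.87, 7.92 and 7.82 (0.41), Jun at 0.33 and Egr1 at 0.30, while Fos (0.05), Fosb (-0.14), Ier3 (0.02) and Nr4a1 (0.01) were near 0 or below.

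The 250 bases before the start sites of 2 of these genes are printed because their letters hold the response elements that bind ATF family proteins (RefSeq, GRCm38.p6). In Atf3 the capitals mark a match to the C/EBP-ATF composite element TGATGNAA, read on the opposite strand. In Ppp1r15a they mark the cAMP response element TGACGTCA.
Atf3, chr1:191183334-191183583, minus strand: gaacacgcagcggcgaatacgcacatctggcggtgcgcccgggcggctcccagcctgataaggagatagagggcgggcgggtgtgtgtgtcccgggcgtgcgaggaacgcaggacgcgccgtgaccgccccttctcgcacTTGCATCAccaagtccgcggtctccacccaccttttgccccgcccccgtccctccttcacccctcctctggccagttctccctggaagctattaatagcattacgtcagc
Ppp1r15a, chr7:45526269-45526518, minus strand: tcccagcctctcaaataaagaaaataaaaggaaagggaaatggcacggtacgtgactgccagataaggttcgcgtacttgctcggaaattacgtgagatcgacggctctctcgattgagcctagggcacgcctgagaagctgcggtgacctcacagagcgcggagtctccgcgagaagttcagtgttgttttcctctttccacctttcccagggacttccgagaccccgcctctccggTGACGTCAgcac
The Atf3 match begins 110 bases before the start and the Ppp1r15a match 12 bases before it. On either strand, TGATGNAA was found in 6 of the 23 ATF4 list genes with a window and in 3.45% of all 32851 windows, and TGACGTCA in 1 of 23 and in 1.55%. A gene counted when any of its windows matched, whereas the percentages are per window, so these shares are not alike. A match is a string of letters and not a measured binding site.

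Targets of YAP, the co-activator held back by the Hippo pathway, were the other list with a median above 0.1. Tankyrase also acts on angiomotin proteins, which bind YAP. Thbs1, a matrix glycoprotein, measured 8.55, 8.36 and 8.22 without and 8.75, 8.99 and 8.63 with XAV939 (0.42 ± 0.11 SE, adjusted p = 0.241). Ccn1, a secreted matricellular protein, was at 8.96, 8.99 and 8.91 against 9.24, 9.43 and 9.15 (0.32). Amotl2, an angiomotin that is also a YAP target, was at 7.50, 7.44 and 7.29 against 7.73, 7.75 and 7.60 (0.28). None of these 3 overlapped between groups. Ccn2, the best known target beside Ccn1, differed by 0.10 with an interval of -0.09 to 0.30, and Nt5e by -0.27, which became -0.12 without XAV939 replicate 2.

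Of the 14 measured YAP targets, 12 of them above background, 3 were higher and 1 lower at an unadjusted p under 0.05. At that threshold were 5.94% and 5.3% of all genes, and 8.89% and 3.3% of genes above background. The median of the YAP list was 0.12 beside 0.05 for genes of like brightness, and no member was called. This median was 0.07 after cyclic loess normalization and without XAV939 replicate 2, and 0.06 without untreated replicate 3. The count of higher genes was 5 without untreated replicate 1. Without both XAV939 replicate 2 and untreated replicate 3 the median was 0.02, with no member at that threshold. The promoter windows of Ccn1 and Amotl2 are printed with the TEAD element ACATTCC in capitals, since TEAD factors carry YAP to DNA.
Ccn1, chr3:145649986-145650235, minus strand: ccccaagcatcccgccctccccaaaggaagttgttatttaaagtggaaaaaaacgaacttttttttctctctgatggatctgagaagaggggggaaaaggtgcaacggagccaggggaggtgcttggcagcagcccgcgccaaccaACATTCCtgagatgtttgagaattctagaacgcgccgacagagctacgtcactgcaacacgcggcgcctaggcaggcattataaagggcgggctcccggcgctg
Amotl2, chr9:102717554-102717803, plus strand: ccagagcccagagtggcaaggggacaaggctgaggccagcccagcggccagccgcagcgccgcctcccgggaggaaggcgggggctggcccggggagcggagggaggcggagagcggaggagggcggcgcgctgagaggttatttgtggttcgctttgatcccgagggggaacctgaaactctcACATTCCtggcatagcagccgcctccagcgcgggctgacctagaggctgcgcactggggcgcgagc
The matches begin 104 and 66 bases before the start. On either strand, ACATTCC was found in 4 of 11 YAP target genes with a window and in 3.25% of all windows. The TCF/LEF element CTTTGAT was in 2 of 15 Wnt target genes and 3 of 18 streak genes with a window, beside 3.21% of all windows. Here too a gene counted by any of its windows, and the percentages are per window.

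No pluripotency gene was called. Sox2, a partner of Pou5f1, measured 11.21, 11.16 and 11.02 without and 11.33, 11.35 and 11.28 with XAV939, a difference of 0.19 at an adjusted p of 0.383. Nanog (0.09), Otx2 (-0.09) and Fgf5 (-0.04) had intervals that included 0. Pou5f1 differed by 0.03, with an interval of -0.13 to 0.18. Of 13 core pluripotency genes 1 was higher at an unadjusted p under 0.05 (Sox2), and none without untreated replicate 3, XAV939 replicate 1 or XAV939 replicate 2. The median of this list was 0.08 beside 0.01 for genes of like brightness, and the summed linear level of its members was 14330 to 14900 in untreated and 14790 to 15780 in XAV939 arrays. None of the 15 primed epiblast genes reached that threshold. Their median was 0.04 beside 0.05 for genes of like brightness, with 8 above 0 and 7 below, and it was -0.0024 without XAV939 replicate 2. Their summed level, in which bright members weigh most, was 7870 to 8157 in untreated and 8214 to 9075 in XAV939 arrays, without overlap. Among 16 naive pluripotency genes 1 was higher (Tfcp2l1, 0.18) and 2 lower, of which Klf2 was above background. Klf2, a Krüppel-like factor of naive cells, measured 5.52, 5.55 and 5.58 without and 5.31, 5.38 and 5.27 with XAV939 (-0.23, adjusted p = 0.259).

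The remaining lists held no called gene. FGF/ERK feedback genes had a median of -0.04, with Spred3 (0.30), Egr1 (0.30) and the phosphatase Dusp6 (0.19) higher at an unadjusted p under 0.05 but Dusp4 (-0.21) and Spry4 (-0.18) on the other side. BMP targets had a median of -0.10 beside -0.04, with 14 of 16 below 0, 1 at that threshold (Msx1) and 10 above background; Id1 was at 0.17. Of 21 MYC and ribosome biogenesis genes 3 were higher (Mycn, Rrp12 and Polr1a) and 1 lower (Npm1). Beside these counts stood 8.89% and 3.3% of all genes above background. The count of higher genes was 0 after quantile or cyclic loess normalization and without XAV939 replicate 2, and 1 without untreated replicate 1 or 3. Flcn (0.29), a regulator of the TFE factors, and the glucosidase Gaa (0.28) had the smallest p among 26 lysosomal genes. Of the 26, 3 were higher at an unadjusted p under 0.05, beside 8.89% of all genes above background. This count was 6 without untreated replicate 1, 5 without XAV939 replicate 2 and 1 without untreated replicate 3. Srxn1, an antioxidant enzyme, measured 7.45, 7.38 and 7.71 without and 7.16, 7.01 and 7.21 with XAV939 (-0.39, adjusted p = 0.221), while Hmox1 (0.07) and Nqo1 (0.08) of the same oxidative and heat stress list were near 0. Cyp1a1, a target of the aryl hydrocarbon receptor, was at 0.34 and Cyp1b1 at 0.16. Others of that list went the other way: over the settings run, Ahrr lay between -0.28 and -0.16 and Cyp1a2 between -0.21 and -0.11. Of its 10 measured genes, 6 were above 0 and 4 below, with 1 higher and 1 lower at an unadjusted p under 0.05. Its median was 0.03 beside 0.02 for genes of like brightness. Cholesterol synthesis (16 genes, median -0.06 beside 0.01), G2/M (21 genes) and p53 targets (15 genes, 1 higher and 1 lower) held no called gene, and the first 2 held none at an unadjusted p under 0.05.

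**Figure D3:**
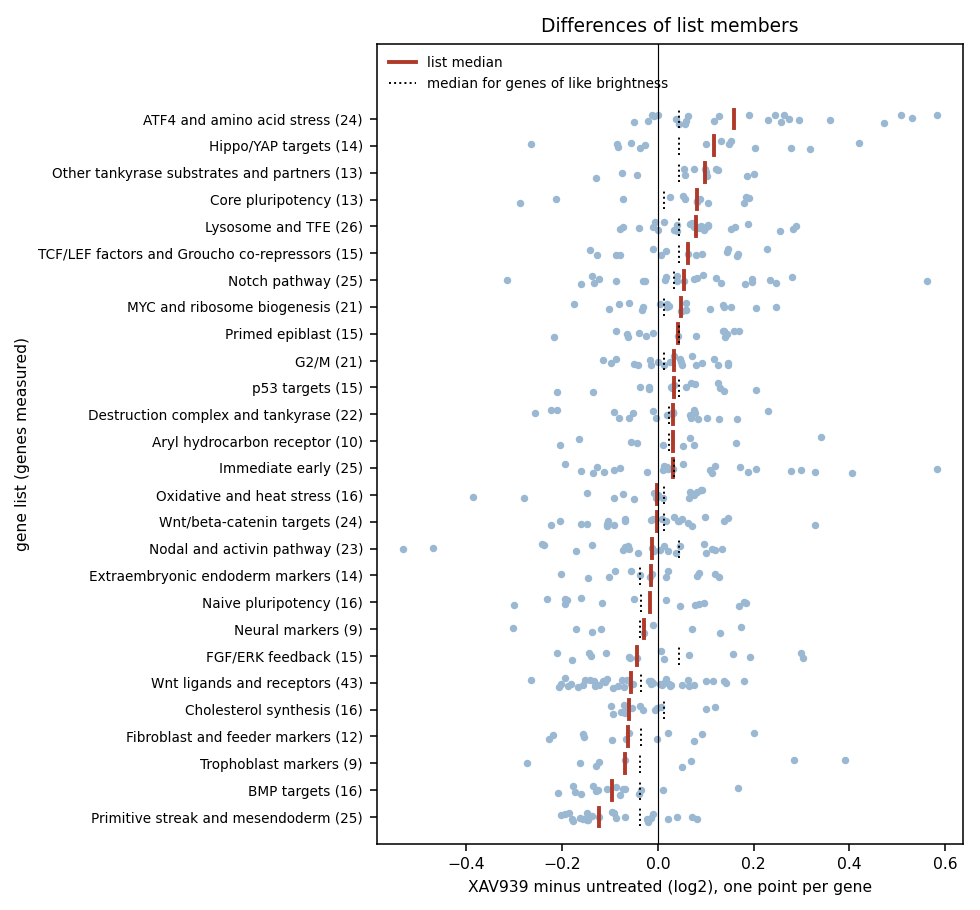
Each point is a gene of a list, with its XAV939 minus untreated difference (log2) on the x axis. Red bars are list medians and dotted bars the values for genes of like brightness, with the number of measured genes in brackets. The medians run from -0.12 for primitive streak genes to 0.16 for ATF4 genes, and 0 genes of any list were called.

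Markers of other cell types were examined as lists, and no member is listed at 0 because array values have no true zero. Of 12 fibroblast and feeder markers 4 were above background, 2 were lower at an unadjusted p under 0.05 (Col3a1 and Col1a1) and none higher, and their summed linear level was 462 to 487 in untreated and 455 to 484 in XAV939 arrays. Extraembryonic endoderm markers (14 genes, 7 above background) had none at that threshold, with sums of 1776 to 1845 and 1724 to 1896. The 9 neural markers (8 above background) had a median of -0.03 beside -0.04 for genes of like brightness, with 3 above 0 and 6 below. They included Sox1, lower at 5.19, 5.0 and 5.18 against 5.42 to 5.43, and Nes, higher by 0.17, with sums of 640 to 645 and 652 to 673. The 9 trophoblast markers (4 above background) had a median of -0.07 beside -0.04 for genes of like brightness, with 4 above 0 and 5 below. Their sums, in which bright members weigh most, were 422 to 500 in untreated and 512 to 522 in XAV939 arrays, without overlap. Among the 9 markers, the keratin Krt8 (0.39) and Gata3 (0.28) were higher and Krt7 (-0.27), which was not above background, was lower. The part of other cell types in the differences above was not tested.

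The other genes of these 24 had varied roles. Nid1, a basement membrane protein, measured 6.23, 6.20 and 6.21 without and 6.55, 6.64 and 6.56 with XAV939 (0.37 ± 0.07 SE, adjusted p = 0.155). Zhx2, a zinc finger and homeobox repressor, was at 6.68, 6.45 and 6.47 against 7.13, 7.02 and 6.99 (0.51). Cdh3, which encodes P-cadherin, was at 7.51, 7.42 and 7.47 against 7.75, 7.87 and 7.77 (0.33). The groups did not overlap in these genes. Luzp1 (0.42), the Mpv17 relative Mpv17l (0.44), the CREB co-activator Crtc1 (0.38), the metalloproteinase Mmp11 (0.33) and Plekhh2 (0.34) completed the higher genes. On the lower side Trim54, a muscle ring finger protein close to background, had the smallest p of all genes at 5.16, 5.25 and 5.34 against 4.87, 4.76 and 4.80 (-0.44). The inflammasome gene Nlrc4 (-0.41) and the late cornified envelope gene Lce3c (-0.49) were likewise dim, and Gm5779 (-0.55), Gm11564 (-0.43), Gm10139 (-0.37) and 1700084J12Rik (-0.48) are genes known only by their identifiers.

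The same compound was also given together with CHIR99021, which blocks GSK3 and thereby protects beta-catenin, and the difference of both compounds minus CHIR99021 alone shares no array with the first comparison. There, 5 of 19938 genes were called (0.0251%), all lower with XAV939. They were Nodal (-0.74, limma adjusted p = 0.00954), Fst (-0.66, 0.0368), the homeobox gene Gbx2 (-0.61, 0.0465), the transcriptional co-regulator Cited2 (-0.47, 0.0476) and the leukotriene receptor Cysltr1 (-0.45, 0.0476), each lower on 3 of 3 arrays. These calls depended on single arrays: none remained without CHIR99021 replicate 2, CHIR99021 replicate 3 or replicate 2 of both compounds, and 1 without CHIR99021 replicate 1. In the absence of CHIR99021 Gbx2 differed by -0.19, Cited2 by -0.16 and Cysltr1 by 0.03, the last with an interval of -0.12 to 0.19. Axin2 (-0.57, adjusted p = 0.0788), Sp5 (-0.71) and Eomes (-0.49) had larger negative differences with CHIR99021 than without it, and their levels were higher there to begin with. No gene passed the test of the difference between the 2 XAV939 effects (limma, 0% called), for which 985 genes (4.94%) had an unadjusted p under 0.05. For Nodal the effects differed by -0.27 ± 0.13 (SE) and for Axin2 by -0.34 ± 0.14, both at an adjusted p of 0.965.

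Of the 12 higher and 12 lower genes chosen by p among genes above background in cells without CHIR99021, 10 of the 12 higher and 12 of the 12 lower ones had the same sign with CHIR99021. At an unadjusted p under 0.05, 7 higher and 7 lower genes were in the same direction there (6.66% and 4.3% of all genes reached it, 11% in all), and Nodal and Fst were the 2 that were called. Both contrasts use the same estimate of spread for a gene, so a small p in the first favours a small p in the second. The shares of all genes are therefore not a like comparator for genes chosen by p. Dll1 (0.29), Nid1 (0.23), Zhx2 (0.32) and Cdh3 (0.27) were higher with non-overlapping groups in that comparison too, as were 7 of the 12 in all, and 6 of the 12 lower genes were lower in this way. All of the 12 higher and 12 lower genes were already non-overlapping in the first comparison, so shares of all genes are not a like comparator here. Of the 1891 genes higher without overlap in the first comparison, 471 were so in both (2.36% of all genes). Of the 1628 lower ones, 247 were so in both (1.24% of all genes). The 12 and 12 were also chosen by p, which these counts do not allow for. Of all genes, 16.1% were non-overlapping either way in the second comparison. Atf3 (0.11), Ddit4 (0.14) and Ppp1r15a (0.15) were closer to 0 there, and Thbs1 was at -0.07. The 5 genes of the microRNA cluster were lower by 0.34 to 0.51. Across the 11594 genes above background the 2 differences correlated with a Pearson r of 0.325 and a Spearman rho of 0.314, and 63.3% had the same sign. After cyclic loess normalization these were 0.290, 0.272 and 59.4%. These are descriptions across genes, which are not independent replicates.

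**Figure D4:**
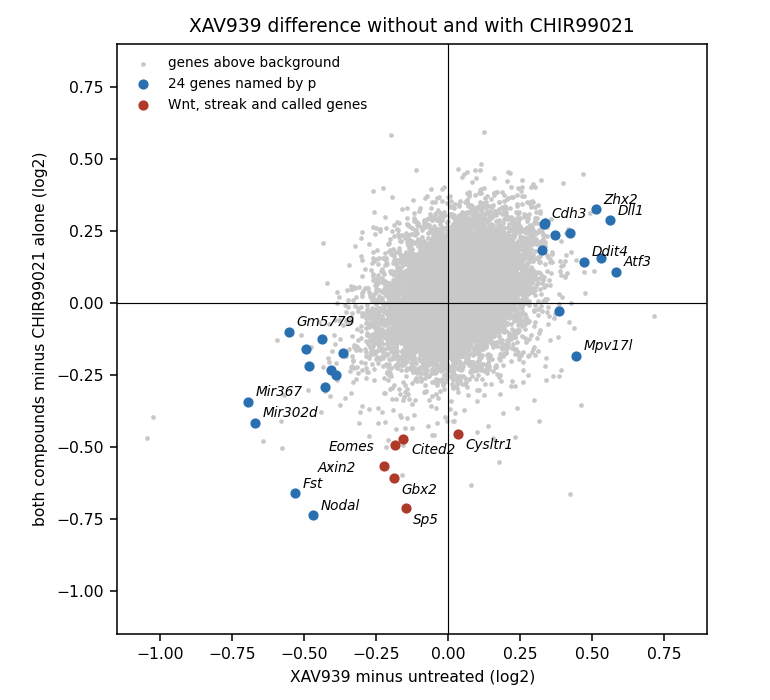
Each grey point is 1 of the 11594 genes above background, with XAV939 minus untreated on the x axis and both compounds minus CHIR99021 alone on the y axis, in log2. Blue points are the 12 higher and 12 lower genes of smallest p on the x axis among genes above background. Red points are Axin2, Sp5 and Eomes, picked from the Wnt and streak lists, and Gbx2, Cited2 and Cysltr1, called on the y axis (Sp5 is not above background). The red points do not stand for the whole lists. Nodal (-0.47 and -0.74) and Fst (-0.53 and -0.66) lie lowest among the blue points.

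Part of what the 2 comparisons share moved with brightness. By decile of mean expression, the median XAV939 difference was -0.03 in the dimmest decile, -0.06 in the fourth, 0.07 in the eighth and 0.01 in the brightest. With CHIR99021 the medians were -0.04, -0.05, 0.06 and 0.00 in the same deciles. The list medians above were for this reason set beside those of genes of like brightness. What gave this trend was not tested.

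**Figure D5:**
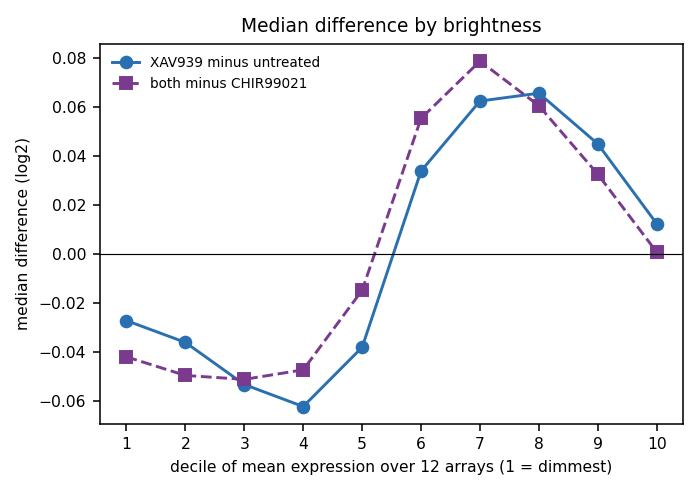
Median difference (log2) of all genes by decile of mean expression over 12 arrays, for XAV939 minus untreated (circles) and for both compounds minus CHIR99021 (squares). Both lines are below 0 in deciles 1 to 5 and at or above 0 in deciles 6 to 10.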

How the data were processed

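Gene expression was measured in mouse EpiSCs on Affymetrix arrays with 1 colour and biotin-labelled total RNA, per the labels' protocols. The deposited values were taken as log2 levels, with 1 value per probe identifier and array, a base inferred from their range of 2.52 to 14.3. How the signal behind each identifier was summarised was not given in the sources used here. Per the submitters' processing notes the authors used Partek (no version), and the normalization was not given in the sources used here. Of 35399 probes, 21789 had 1 gene symbol, 1621 several, and 11989 were unnamed. RefSeq names (GRCm38.p6) were not found for 91 probes. The brightest probe over 12 arrays stood for each of 19938 genes, 999 of which had more than 1 probe. No further normalization was applied. Depth has no meaning for arrays; 3 arrays per group limit the precision.

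The 4 group means were estimated from all 12 arrays in limma 3.58.1 under R 4.3.3 (lmFit and eBayes, moderated two-sided test, 8 residual and 8.03 prior degrees of freedom), with Benjamini-Hochberg adjustment within each of 3 contrasts. Named genes were the 12 higher and 12 lower genes of smallest p above background, a fixed list, up to 4 members of smallest p per list, and genes called in any contrast. Members and the 27 lists were chosen with earlier results of these data known. Mir302a, Mir302b, Mir302c, Larp7, Gm14164, Gm10767, Zfp971, Snora44 and Snord73b were added after their values were seen, as were members cited with a difference alone. The test was tried on simulated data for XAV939 against untreated over 19938 genes (99% of genes changed by 1 recovered, 2.1% false calls). Promoter and microRNA sequences are from RefSeq. Figures used matplotlib 3.10.9 in Python 3.11.15.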

Additional observations from a re-analysis of the deposited data

Results flagged for a closer look

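Gm14164 stood out because every XAV939 array moved one way without CHIR99021 and the opposite way with it. It measured 7.49, 7.37 and 7.28 in untreated cells and 7.95, 7.72 and 7.73 with XAV939, a difference of 0.42. With CHIR99021 alone it measured 7.63, 8.0 and 7.51, and with both compounds 7.16, 7.10 and 6.89, a difference of -0.66. The 2 effects differed by -1.09 ± 0.16 (SE), at an adjusted p of 0.107 in the limma test of the difference.

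Usp25, a deubiquitinase known to bind tankyrase, was picked out for the same reason. It measured 8.53, 8.37 and 8.43 in untreated cells against 8.34, 8.30 and 8.31 with XAV939 (-0.13). With CHIR99021 the values were 8.33, 8.35 and 8.38 alone and 8.40, 8.48 and 8.78 with both compounds (0.20). The effects differed by 0.33 ± 0.13 (SE), at an adjusted p of 0.965.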

How the results depend on the processing

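XAV939 against untreated gave 0 called genes under the other settings run except array weights (8) and each array's standard deviation as covariate (3: Gm10767, Mir367 and Zfp971, all lower); leaving out each array in turn gave 0 to 0, and the replicate block 0. Same-numbered XAV939 and untreated arrays deviated together only weakly (r between -0.25 and 0.17). With 3 such pairs, each measured from group means of 3 arrays, this cannot decide whether the numbers pair them. For both compounds against CHIR99021 alone the count of 5 became 9 with quantile or cyclic loess normalization, 10 for genes above the median of mean expression, 2 over single probes, 1 with array weights, 1 with the replicate block, 0 at a fold threshold of 1.5 and 0 in a fit to the 2 groups alone, and ranged from 0 to 5 without single arrays. The difference between the effects gave 1 gene, Gm14164, with trend and robust eBayes and with array weights, 0 with the replicate block, and 0 to 1 without single arrays. Among named genes, directions turned only for differences near 0. Rnf43 became 0.037 (quantile) and 0.029 (cyclic loess), Lgr5 -0.055, -0.059 and -0.0012 (quantile, loess, covariate), Tiparp -0.022, -0.026 and -0.0039 (the same), Cysltr1 -0.023, -0.032 and -0.015 (quantile, loess, without the 2 arrays of lowest spread), Apc -0.0074 (loess) and Pou5f1 -0.0044 (array weights) and -0.023 (without those 2 arrays). Leaving out single arrays gave Tnks2 -0.015 to 0.045, Gsk3a -0.11 to 0.036, Rnf146 -0.0070 to 0.15, Nkd1 -0.16 to 0.039, Rnf43 -0.062 to 0.019, Mixl1 -0.16 to 0.018, Lefty2 -0.17 to 0.024, Pou5f1 -0.024 to 0.062, Tiparp -0.025 to 0.055, Mvk -0.00013 to 0.17 and Cysltr1 -0.024 to 0.069. The cause was not tested. Higher genes were 52.8% of those with an unadjusted p under 0.05, and 49.4% to 57.9% under other scalings. Leaving out the 2 arrays of lowest spread was chosen after seeing the data.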

Other observations

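Probes without a single gene symbol, which enter no comparison above, numbered 13610. None was called between XAV939 and untreated cells in limma (smallest adjusted p 0.232), and 1772 (13%) had an unadjusted p under 0.05.

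The largest positive difference of any gene was that of Vmn1r181, a vomeronasal receptor gene whose mean is below the background measure. It measured 4.21, 4.05 and 4.14 in untreated cells and 5.13, 4.62 and 4.84 with XAV939 (0.73, limma adjusted p = 0.27).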
